A study of Mus musculus with 12 samples.

Results

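The growth hormone and insulin-like growth factor (IGF) axis was followed in the livers of mice that lacked YAP1 through 10 genes, Ghr, Stat5b, Socs2, Cish, Igf1, Igfals, Bcl6, Cux2, Igfbp1 and Igfbp2, which were found by name among the 41743 genes of both deposited tables. Whole livers were taken from 12 females, 3 to 4 months old, for RNA sequencing, in 4 groups of 3. YAP KO mice carried Foxa3-Cre, Yap1 fl/fl and a ROSA-stop fl/fl-EYFP reporter on the C57BL/6 background, and they were set against WT (C57BL/6) littermates. YAP KO TAZ HET mice carried Foxa3-Cre, Yap1 fl/fl and a deletion of 1 copy of Wwtr1, the gene of TAZ, on a mixed C57BL/6-FVB background, and they were set against WT (mixed) littermates. The Foxa3 promoter drives Cre in the foregut endoderm of the embryo. Hepatocytes and the bile duct lineage would thus lose the floxed alleles, and blood, vascular and stromal cells of the liver would keep them. Which liver cells lost them was not measured here. The paper mentions evidence, not shown, that its Cre line also acts in the developing kidney. The loss of 1 copy of Wwtr1 cannot be told apart from the strain background, since both differ between the models, as do the animals. The models also came from different floxed Yap1 lines, and the reporter is described for YAP KO mice alone. These differences cannot be told apart from the loss of 1 copy either. The mice had free access to chow, and neither the hour of collection nor any fast before it is given in the sources used here.

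Growth hormone from the pituitary binds its receptor on hepatocytes, the receptor activates the kinase JAK2, and JAK2 phosphorylates STAT5B, which then enters the nucleus. STAT5B switches on Igf1, Igfals and the feedback genes Socs2 and Cish. IGF1 circulates mostly in a ternary complex with IGFBP3 and the acid labile subunit, which Igfals encodes, and smaller binding proteins such as IGFBP1 and IGFBP2 carry IGF1 outside that complex. In rodents growth hormone is released in pulses in males and almost continuously in females, and this pattern sets the sex bias of many liver genes through STAT5B, BCL6 and CUX2. Insulin lowers Igfbp1 by keeping the transcription factor FOXO1 out of the nucleus.

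The tables held TPM, a unit that allows for the length of a gene and the size of a library, so levels of different genes can be compared. Over the 12 livers Igfbp2 averaged 999 TPM and ranked 122 among all genes, Igfbp1 averaged 577 TPM and Ghr 146 TPM. Igf1 averaged 109 TPM and Igfals 85.8 TPM. The 5 regulators lay lower, with Stat5b at 28.3 TPM, Cish at 12.5 TPM, Socs2 at 10.9 TPM, Cux2 at 9.08 TPM and Bcl6 at 8.25 TPM. The genes lie at chr15:3317760-3583492 (Ghr), chr11:100780731-100850724 (Stat5b), chr10:95385362-95417180 (Socs2), chr9:107296026-107302784 (Cish), chr10:87858265-87937042 (Igf1), chr17:24865997-24882010 (Igfals), chr16:23965052-23988852 (Bcl6), chr5:121856366-122050102 (Cux2), chr11:7197782-7202546 (Igfbp1) and chr1:72824503-72852474 (Igfbp2) of GRCm38. None of the 10 had a near-identical copy over 30% or more of its own length among the transcripts, and the antisense genes that overlap Cish, Igf1, Bcl6 and Cux2 were listed at 0 TPM in every liver.

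Yap1 and Wwtr1 check the labels. Yap1 lay between 28.2 and 33.2 TPM in the 6 WT livers, between 1.67 and 3.72 TPM in YAP KO livers and between 8.63 and 11.5 TPM in the YAP KO TAZ HET group. The mean was 0.0821 and 0.304 of WT, and the fall was larger in YAP KO mice (difference between the models -1.59, limma adjusted p = 0.0371, called in 5 of 18 alternatives). The Yap1 RNA left is thus another way in which the models may differ. Wwtr1 lay between 6.26 and 8.38 TPM in WT livers, between 13.3 and 16.7 TPM in YAP KO livers and between 11.5 and 14.1 TPM in the YAP KO TAZ HET group. Its scaled log2 fold change on the mixed background was 0.26 (limma adjusted p = 0.0743), so the Wwtr1 level does not show the loss of 1 copy that the labels give. Every library sums to 1000000 TPM, and the study's methods give a planned number of reads but not the reads of each library, so the depth behind single values is unknown. For the tests TPM was divided by a scaling factor per library, which was 1.085 to 1.219 for YAP KO livers against 0.852 to 0.913 for WT, and 1.075 to 1.182 against 0.858 to 0.947 on the mixed background. Without scaling the median log2 fold change of all genes was 0.28 (YAP KO) and 0.24 (YAP KO TAZ HET) instead of -0.04 and -0.04, and 84.0% and 82.2% of the called genes were higher instead of 51.3% and 50.2%. Log2 fold changes below are from limma on log2(scaled TPM + 1), with a standard error (SE), and adjusted p-values are Benjamini-Hochberg values over all genes tested, with a threshold of 0.05. Values of single mice are TPM as deposited, and the scaled differences lie below those that the TPM themselves show.

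Windows of 300 bases around transcription starts, from 250 bases before to 50 bases after, were available from RefSeq (GRCm38.p6) for 9 of the 10 genes, in 16 windows. They were searched on both strands for TTCNNNGAA, the sequence that STAT5 binds, for TGTTTTG, the insulin response sequence, and for CATTCC, the sequence that the YAP and TAZ partner TEAD binds. TTCNNNGAA was found in 5 windows of 3 genes, Cish, Igfals and Bcl6, and in 8.3% of all 32851 promoter windows. TGTTTTG was found in the window of Igfbp1 alone among the 9 genes and in 6.28% of all windows. CATTCC was found in 3 windows of the same 3 genes that held TTCNNNGAA, and in 14.7% of all windows. A window is printed for each of the 4 genes with a match, 5′ to 3′ on the strand of the gene, with the matches in capitals, because these genes answer growth hormone or insulin directly and differ in what their RNA did.
Cish, chr9:107296409-107296708, plus strand: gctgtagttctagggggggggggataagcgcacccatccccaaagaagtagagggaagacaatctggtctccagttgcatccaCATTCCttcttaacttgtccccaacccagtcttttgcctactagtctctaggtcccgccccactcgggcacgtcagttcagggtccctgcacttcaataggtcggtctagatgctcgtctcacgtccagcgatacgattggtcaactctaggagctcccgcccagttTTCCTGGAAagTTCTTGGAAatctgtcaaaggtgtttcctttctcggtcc
Igfals, chr17:24877981-24878280, plus strand: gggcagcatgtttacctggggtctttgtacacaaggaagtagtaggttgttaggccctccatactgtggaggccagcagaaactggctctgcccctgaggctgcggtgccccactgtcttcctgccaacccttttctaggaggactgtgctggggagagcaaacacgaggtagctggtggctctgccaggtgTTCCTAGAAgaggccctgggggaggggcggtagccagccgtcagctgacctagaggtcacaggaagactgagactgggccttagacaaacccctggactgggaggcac
Bcl6, chr16:23981234-23981533, minus strand: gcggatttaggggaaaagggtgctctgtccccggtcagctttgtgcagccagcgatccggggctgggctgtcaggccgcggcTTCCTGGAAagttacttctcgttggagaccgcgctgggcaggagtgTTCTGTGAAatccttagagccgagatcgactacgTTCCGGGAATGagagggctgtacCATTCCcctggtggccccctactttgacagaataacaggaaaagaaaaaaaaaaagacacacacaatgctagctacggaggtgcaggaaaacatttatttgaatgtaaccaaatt
Igfbp1, chr11:7197537-7197836, plus strand: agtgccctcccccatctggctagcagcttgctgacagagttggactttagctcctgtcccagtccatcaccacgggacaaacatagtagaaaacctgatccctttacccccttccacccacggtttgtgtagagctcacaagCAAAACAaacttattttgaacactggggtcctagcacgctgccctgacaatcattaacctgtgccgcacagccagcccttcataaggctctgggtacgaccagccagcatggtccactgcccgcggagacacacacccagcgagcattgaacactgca
In Cish, TTCCTGGAA began 1 base and TTCTTGGAA 12 bases into the transcript, and CATTCC began 167 bases before the start. In Igfals, TTCCTAGAA began 58 bases before the transcription start that this window surrounds, and another window of the gene held TTCTCAGAA and CATTCC. In Bcl6, TTCCTGGAA, TTCTGTGAA and TTCCGGGAA began 168, 122 and 88 bases before the start, and the last of these overlaps GGAATG, the reverse complement of CATTCC, while a CATTCC began 65 bases before the start. In Igfbp1, CAAAACA, the reverse complement of TGTTTTG, began 108 bases before the start. A match is a run of letters and not a measured binding site.

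In YAP KO livers 6 of the 10 genes passed the test, against 36.7% of all genes tested. Igfbp1 and Igfbp2 rose (18.8% of all genes rose) and Ghr, Igf1, Igfals and Cux2 fell (17.9% fell). On the mixed background 8 of the 10 passed, against 38.2% of all genes. Igfbp1, Igfbp2 and Socs2 rose (19.2% of all genes rose) and Ghr, Igf1, Igfals, Bcl6 and Cux2 fell (19.0% fell). The median log2 fold change of the 10 genes was -0.19 and -0.36, beside -0.04 over all genes in both. The TPM ranges were apart in 6 of the 10 genes in the C57BL/6 set, against 56.7% of all genes, and in 9 of the 10 in the mixed set, against 54.5%. Over the 13 alternative settings of each model no called gene changed direction.

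**Figure D1:**
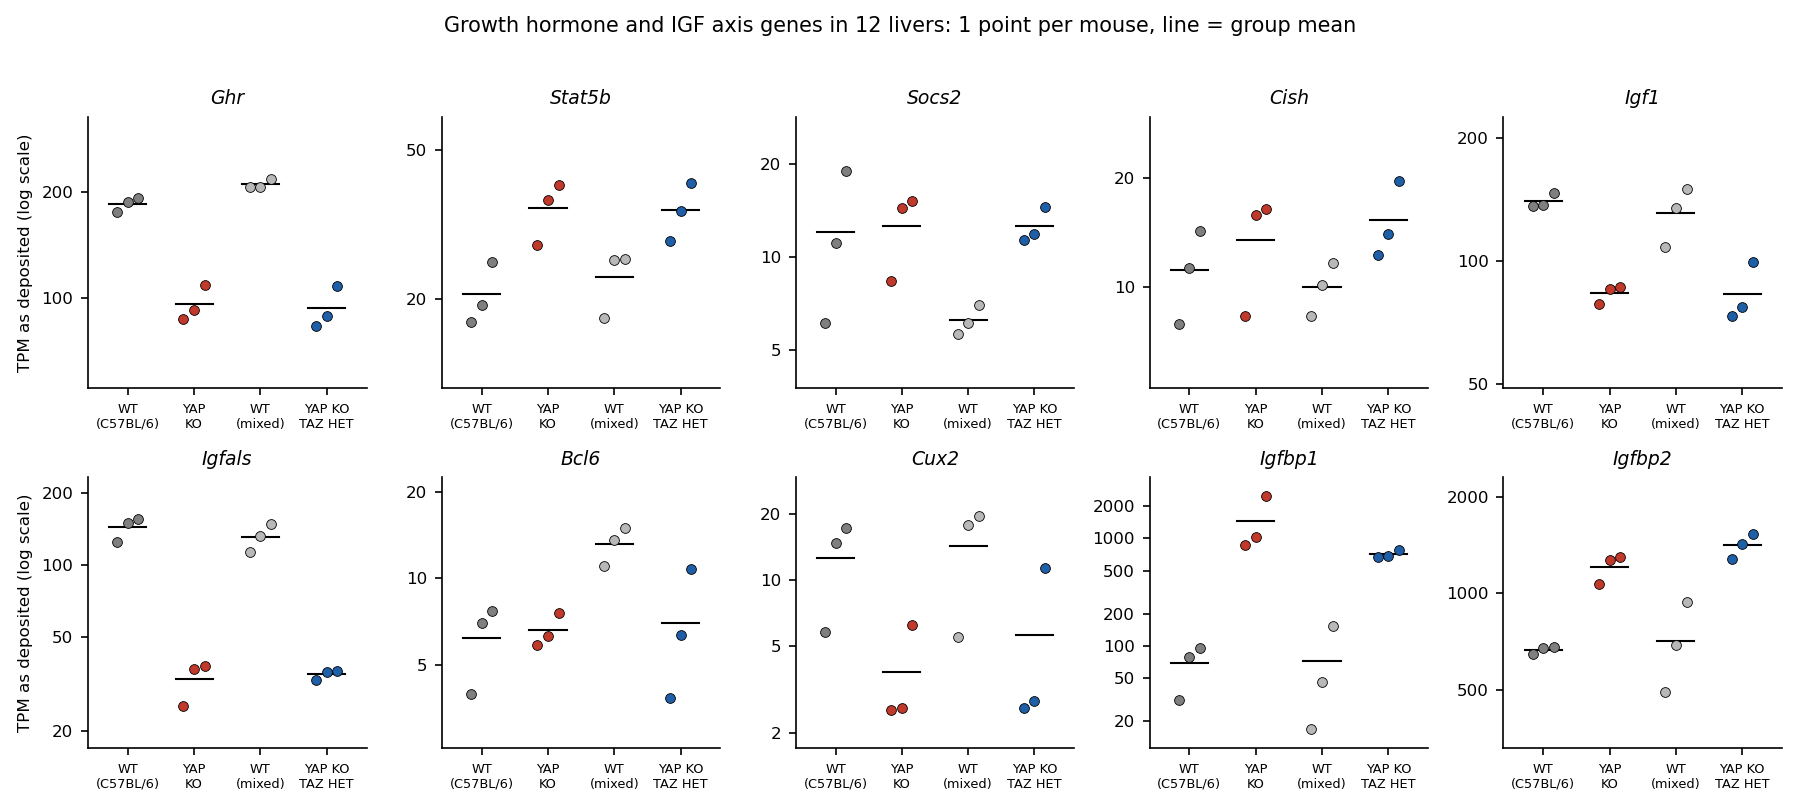
TPM as deposited of the 10 genes on log axes, 1 point per mouse and 3 mice per group, with a line at the group mean. Ghr, Igf1 and Igfals lie apart and lower in both deletion groups, Igfbp1 and Igfbp2 lie apart and higher, and the deletion groups of the 2 backgrounds lie at nearly the same level for most genes.

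Ghr, which encodes the growth hormone receptor (ENSMUSG00000055737), was lower in each deletion group. It stood at 187, 193 and 176 TPM in WT (C57BL/6) livers against 87.5, 109 and 92.4 TPM in YAP KO livers. On the mixed background it stood at 218, 207 and 206 TPM in WT littermates against 108, 89.3 and 83.6 TPM in the YAP KO TAZ HET group. The lowest WT liver had 176 TPM and the highest liver with the deletion 109 TPM, so the groups did not overlap. Non-overlap in the lower direction was seen for 9.29% of all genes in the C57BL/6 set and for 10% in the mixed set. Ghr fell by 1.30 on the log2 scale in YAP KO mice (SE 0.13, limma adjusted p = 0.000249) and by 1.48 in YAP KO TAZ HET mice (SE 0.10, limma adjusted p = 3.07e-05). It was called under all 13 alternatives in both models. In TPM the mean was 0.52 of WT in the first model and 0.446 of WT in the second.

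Stat5b, the factor that relays the signal (ENSMUSG00000020919), did not follow its receptor. It stood at 25.0, 17.3 and 19.3 TPM in WT (C57BL/6) livers against 36.7, 40.3 and 27.9 TPM in YAP KO livers. It stood at 25.4, 25.6 and 17.7 TPM in WT (mixed) livers against 28.5, 40.9 and 34.4 TPM in the YAP KO TAZ HET group. In TPM the groups did not overlap in either model, and the deletion groups were the higher ones, as for 47.5% and 44.4% of all genes. On scaled values the log2 fold change was 0.39 (95% interval -0.04 to 0.83, limma adjusted p = 0.138) in YAP KO mice and 0.27 (-0.15 to 0.68, limma adjusted p = 0.277) in YAP KO TAZ HET mice, and neither passed. Without scaling both passed, at 0.74 (limma adjusted p = 0.0103) and 0.58 (limma adjusted p = 0.0294), and the YAP KO value also passed without WT mouse LM75 (0.57, limma adjusted p = 0.0384). Stat5a was 94.7% identical to Stat5b over 32.1% of the length of Stat5a, so reads from that stretch may be shared between the 2 genes. A fall of Stat5b beyond 0.15 on the scaled log2 values lay outside both intervals.

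Socs2 and Cish, which encode the inhibitors SOCS2 and CIS of the receptor, are immediate targets of STAT5 (ENSMUSG00000020027 and ENSMUSG00000032578). Socs2 stood at 19.0, 6.11 and 11.2 TPM in WT (C57BL/6) livers against 15.2, 8.36 and 14.4 TPM in YAP KO livers. The 2 groups overlapped over most of their range, and the log2 fold change was -0.19 (95% interval -1.05 to 0.68, limma adjusted p = 0.732). On the mixed background Socs2 stood at 6.99, 6.12 and 5.66 TPM in WT littermates against 14.6, 11.4 and 11.9 TPM in the YAP KO TAZ HET group, and the groups did not overlap. It rose by 0.62 there (SE 0.11, limma adjusted p = 0.00347). The call was kept under 12 of 13 alternatives and lost in a single fit of all 12 libraries (limma adjusted p = 0.132).

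Cish stood at 14.3, 7.94 and 11.3 TPM in WT (C57BL/6) livers against 16.4, 8.32 and 15.8 TPM in YAP KO livers. In WT (mixed) livers it stood at 10.2, 8.32 and 11.6 TPM and in YAP KO TAZ HET livers at 19.6, 12.3 and 14.0 TPM. The YAP KO range covered nearly all of its WT range, while the YAP KO TAZ HET livers all lay above theirs. The log2 fold changes of Cish were -0.10 (95% interval -0.73 to 0.53, limma adjusted p = 0.805) and 0.25 (-0.15 to 0.65, limma adjusted p = 0.289). Without scaling the Cish value in YAP KO TAZ HET mice was 0.55 and passed (limma adjusted p = 0.0442). In YAP KO mice the uncalled values of Socs2 and Cish turned from below 0 to 0.15 and 0.23 without scaling. So neither feedback gene passed the test downwards in either model, under any alternative, while the receptor fell in both.

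Igf1, the main liver hormone made in answer to growth hormone (ENSMUSG00000020053), was lower in both models. It stood at 137, 136 and 146 TPM in WT (C57BL/6) livers against 86.4, 78.5 and 85.1 TPM in YAP KO livers. It stood at 150.3, 108 and 135 TPM in WT (mixed) livers against 99.2, 73.2 and 76.9 TPM in the YAP KO TAZ HET group. The groups did not overlap in either model, although YAP KO TAZ HET mouse LM225, at 99.2 TPM, came near the lowest WT (mixed) liver, at 108 TPM. Igf1 fell by 1.10 (SE 0.09, limma adjusted p = 9.56e-05) and by 0.97 (SE 0.14, limma adjusted p = 0.00116).

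Igfals, which encodes the acid labile subunit that holds IGF1 and IGFBP3 in the ternary complex (ENSMUSG00000046070), fell further than its partner. It stood at 125, 156 and 151 TPM in WT (C57BL/6) livers against 25.4, 37.7 and 36.5 TPM in YAP KO livers. It stood at 148, 114 and 133 TPM in WT (mixed) livers against 35.7, 35.5 and 32.8 TPM in the YAP KO TAZ HET group. The lowest WT liver held 114 TPM and the highest liver with the deletion 37.7 TPM. Igfals fell by 2.45 (SE 0.19, limma adjusted p = 6.2e-05) and by 2.20 (SE 0.11, limma adjusted p = 5.42e-06), and the mean TPM was 0.231 and 0.263 of WT. Igf1 and Igfals were called under all 13 alternatives in both models.

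Bcl6, a repressor that competes with STAT5 for its sites and is more abundant in male liver (ENSMUSG00000022508), was called in one model. It stood at 3.95, 6.98 and 7.71 TPM in WT (C57BL/6) livers against 6.31, 5.87 and 7.58 TPM in YAP KO livers, which lay inside the WT range. The log2 fold change was -0.20 (95% interval -0.69 to 0.29, limma adjusted p = 0.501), and it was 0.11 without scaling. On the mixed background it stood at 13.6, 11.03 and 15.01 TPM in WT littermates against 6.32, 10.8 and 3.83 TPM in the YAP KO TAZ HET group. Mouse LM250, at 10.8 TPM, lay just below the lowest WT liver. Bcl6 fell by 1.21 there (SE 0.29, limma adjusted p = 0.0116), and all 13 alternatives kept the call.

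Cux2, a repressor and activator that is found in female and hardly in male liver (ENSMUSG00000042589), varied widely within the WT groups, by 2.97 and by 3.58 times. It stood at 17.2, 5.80 and 14.8 TPM in WT (C57BL/6) livers against 2.59, 2.55 and 6.23 TPM in YAP KO livers. It stood at 17.8, 19.6 and 5.49 TPM in WT (mixed) livers against 11.4, 2.80 and 2.60 TPM in the YAP KO TAZ HET group. In each model 1 liver with the deletion lay above the lowest WT liver, so the groups overlapped. Cux2 fell by 1.77 (SE 0.43, limma adjusted p = 0.0136) and by 1.58 (SE 0.53, limma adjusted p = 0.0462). The YAP KO call was lost without LM193 or without LM74 (limma adjusted p = 0.0503 and 0.0504). The YAP KO TAZ HET call was kept in 6 of 13 alternatives, over which the adjusted p from limma ran from 0.00787 to 0.148, and it was lost without LM226, LM227, LM250 or LM251.

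Igfbp1, a small binding protein of hepatocytes that rises in fasting and stress (ENSMUSG00000020429), moved furthest. It stood at 95.8, 31.4 and 79.7 TPM in WT (C57BL/6) livers against 1021, 2476 and 873 TPM in YAP KO livers. It stood at 16.7, 153 and 46.0 TPM in WT (mixed) livers against 674, 686 and 773 TPM in the YAP KO TAZ HET group. The highest WT liver, LM227, had 153 TPM and the lowest liver with the deletion 674 TPM. WT (mixed) mice differed by 9.16 times among themselves and YAP KO TAZ HET mice by 1.15 times. Igfbp1 rose by 4.01 (SE 0.51, limma adjusted p = 0.000736) and by 3.50 (SE 0.66, limma adjusted p = 0.0042), and the mean TPM was 21.1 and 9.88 times that of WT. The value on the mixed background was 2.70 without LM226 and 4.32 without LM227. It was called under all 13 alternatives in both models.

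Igfbp2, the other small binding protein of hepatocytes (ENSMUSG00000039323), rose less. It stood at 644, 673 and 681 TPM in WT (C57BL/6) livers against 1068, 1294 and 1268 TPM in YAP KO livers. It stood at 493, 939 and 691 TPM in WT (mixed) livers against 1276, 1533 and 1425 TPM in the YAP KO TAZ HET group. The groups did not overlap in either model. Igfbp2 rose by 0.50 (SE 0.14, limma adjusted p = 0.022) and by 0.72 (SE 0.25, limma adjusted p = 0.0497). The calls were kept in 8 and in 6 of 13 alternatives, with an adjusted p from limma of 0.000236 to 0.0927 and of 0.00368 to 0.146, and each was lost in 4 of the 6 fits that left out 1 mouse. Without LM226 the value in YAP KO TAZ HET mice was 0.44 and without LM227 it was 0.96. Without scaling the changes were 0.86 and 1.04.

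**Figure D2:**
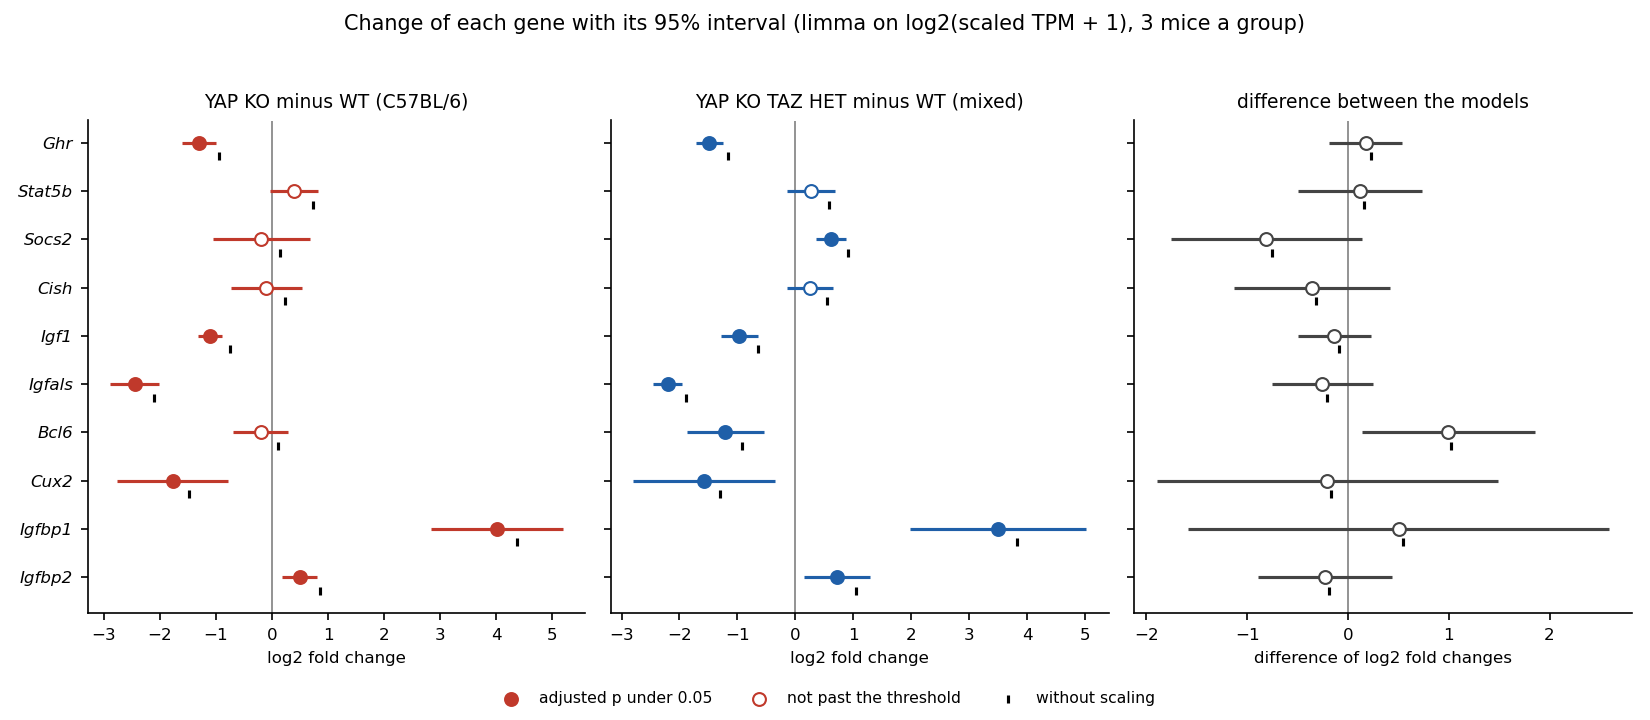
Log2 fold change of each gene in YAP KO mice, in YAP KO TAZ HET mice and the difference between the models, with 95% intervals from limma, filled where the adjusted p is under 0.05, and a tick for the value without scaling. Ghr, Igf1, Igfals and Igfbp1 are filled and far from 0 in both models, and no gene is filled in the panel of differences.

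The order of the group means was read in TPM as deposited, in which 47.5% and 44.4% of all genes lay apart and higher in the deletion groups. In Ghr, Igf1, Igfals and Cux2 both WT groups lay above both deletion groups by their means, and in Stat5b, Socs2, Cish, Igfbp1 and Igfbp2 below, while in Bcl6 the WT groups held the highest and the lowest mean. The share of all genes with such an order was not computed. For Socs2 the WT (C57BL/6) mean, at 12.1 TPM, was close to both deletion groups. On scaled values Socs2 and Cish in YAP KO mice lay on the other side, at -0.19 and -0.10, neither called. In Socs2, Cish and Cux2 all neighbours in that order overlapped. Between the 2 deletion groups TPM overlapped in 9 of the 10 genes and was apart in Igfbp1 (in 10.1% of all genes it was apart), at 873 TPM or more and 773 TPM or less. The mean levels of the deletion groups were close in Ghr (96.4 and 93.8 TPM), Igf1 (83.3 and 83.1 TPM), Igfals (33.2 and 34.7 TPM), Stat5b (35.0 and 34.6 TPM), Socs2 (12.7 and 12.6 TPM) and Bcl6 (6.59 and 6.98 TPM). The 2 WT groups were compared to see how far the sets of animals differed before any deletion. None of the 10 genes passed (0.216% of all genes did, 0.171% upwards and 0.0449% downwards), 2 had an unadjusted p under 0.05 in limma, as did 649 of the 11126 genes tested, and the TPM ranges were apart in 2 of 10, both higher in WT (mixed) livers, against 11.7% of all genes in either direction and 8.42% in that one. Those with the low unadjusted p were Socs2, which in WT (mixed) livers averaged 0.517 of its WT (C57BL/6) level (limma adjusted p = 0.844), and Bcl6, which averaged 2.13 times that level (limma adjusted p = 0.334). Socs2 and Bcl6 are also the 2 genes called in one model alone, and in both the means of the deletion groups were close.

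The difference between the models was tested as a contrast over all 12 livers. None of the 10 genes passed (0.0576% of all genes did, 0.0247% upwards and 0.0329% downwards), and 1, Bcl6, had an unadjusted p under 0.05, as did 555 of the 12159 genes tested. The Bcl6 change was higher in YAP KO than in YAP KO TAZ HET mice by 0.997 (95% interval 0.13 to 1.86, limma adjusted p = 0.998). The Socs2 change was lower by 0.81, with an interval of -1.75 to 0.14, and that of Igfbp1 higher by 0.50, with an interval of -1.59 to 2.59. For Ghr the interval ran from -0.18 to 0.54, for Igf1 from -0.50 to 0.23 and for Igfals from -0.76 to 0.25. The intervals of these 3 genes were narrow, while for Igfbp1 and Cux2 (-1.90 to 1.48) they were wide.

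Ratios of 2 genes within a liver were computed after the values had been seen, because no scaling of a whole library can change them. There were 9 ratios and 27 comparisons. With 3 mice against 3 the smallest two-sided p of the exact permutation test is 0.1, and the smallest value adjusted over the comparisons was 0.169, so none could pass. Stat5b per Ghr was 0.134, 0.0897 and 0.109 in WT (C57BL/6) livers and 0.42, 0.368 and 0.302 in YAP KO livers, a geometric mean 3.29 times as high. It was 0.117, 0.124 and 0.0861 in WT (mixed) livers and 0.263, 0.458 and 0.411 in YAP KO TAZ HET livers, 3.42 times as high. The relay factor thus stood higher beside its receptor in each of the 6 livers with the deletion than in any WT liver.

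Of the ratios to Ghr, that of Igf1 moved least. Its geometric mean was 0.756 in WT (C57BL/6) and 0.868 in YAP KO livers, and the groups overlapped, while on the mixed background it was 0.618 and 0.884 without overlap. Socs2 per Ghr was 2.17 times as high in YAP KO livers as in WT (C57BL/6) livers, with overlap, and 4.54 times as high in YAP KO TAZ HET livers as in WT (mixed) livers, without overlap. Cish per Ghr was 2.30 times as high, with overlap, and 3.40 times as high, without. By geometric mean Socs2 and Cish thus stood higher beside Ghr in both deletion groups. In YAP KO mouse LM189, however, both ratios lay below those of WT mouse LM75. Igf1 kept closer to Ghr by geometric mean, although its groups too were apart on the mixed background. Socs2 per Cish, the ratio of the feedback genes, had a geometric mean of 1.004 in WT (C57BL/6) and 0.948 in YAP KO livers, with overlap, and of 0.626 and 0.837 on the mixed background, without overlap.

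Igfals per Igf1 was 0.91, 1.15 and 1.03 in WT (C57BL/6) livers and 0.987, 1.05 and 0.983 in WT (mixed) livers, so the partners of the ternary complex had nearly equal TPM in all 6 WT livers. In YAP KO livers it was 0.294, 0.48 and 0.429 and in YAP KO TAZ HET livers 0.36, 0.484 and 0.426. The highest liver with the deletion had 0.484 and the lowest WT liver 0.91. Igfbp1 per Igf1 had a geometric mean of 0.444 in WT (C57BL/6) and 15.6 in YAP KO livers, and of 0.377 and 8.62 on the mixed background. Igfbp2 per Igf1 went from 4.76 to 14.5 and from 5.26 to 17.1. Igfbp1 per Igfbp2 was 0.149, 0.0466 and 0.117 in WT (C57BL/6) livers and 0.955, 1.91 and 0.689 in YAP KO livers, so the 2 RNAs were of like level in YAP KO livers. In the mixed set it was 0.0339, 0.163 and 0.0666 in WT livers and 0.528, 0.448 and 0.542 in YAP KO TAZ HET livers.

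**Figure D3:**
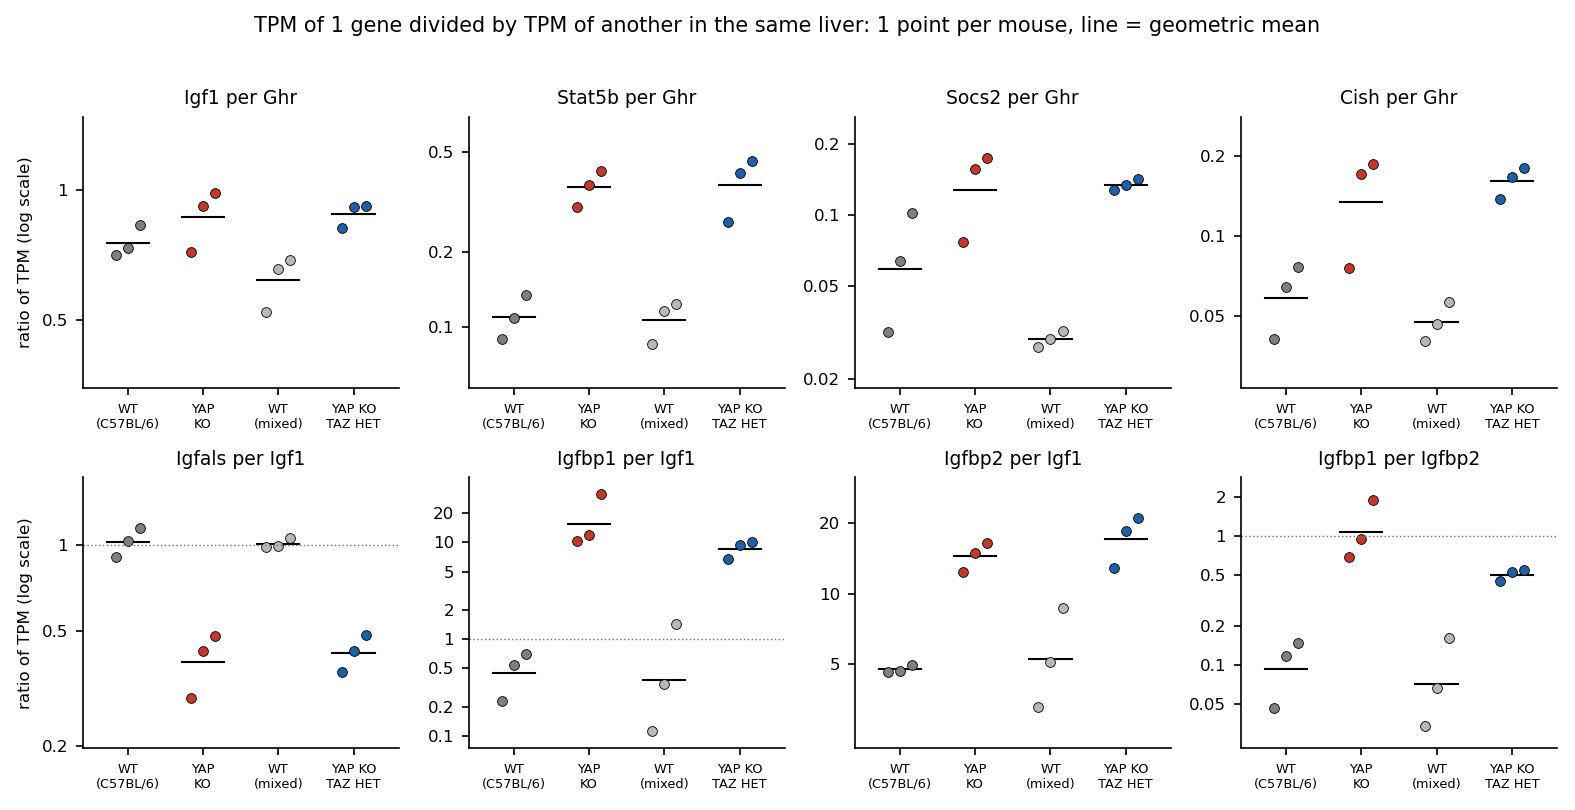
TPM of one gene divided by the TPM of another in the same liver, on log axes, 1 point per mouse, with a line at the geometric mean and a dotted line at 1 where the values cross it. Igfals per Igf1 sits near 1 in the 6 WT livers and at 0.484 or less in the 6 livers with the deletion, and Stat5b per Ghr is higher in all 6.

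Pairs of genes with a shared role were then compared across the 12 livers after the group means had been removed, which asks whether mice of one group move together. Socs2 and Cish did, with r = 0.835 (exact permutation within groups, two-sided p = 0.0131, adjusted over the 3 relations 0.0394) and rho = 0.839 (exact permutation p = 0.0154, adjusted 0.0463). In WT (C57BL/6) livers both were highest in LM75 and lowest in LM192, and in YAP KO livers both were lowest in LM189. Without LM192 and LM75, the 2 livers farthest from the median of Socs2, r was 0.827. Within the C57BL/6 set r was 0.935 and within the mixed set 0.428. With 1 mouse left out the adjusted p was above 0.05 in 9 of 12 cases, in which fewer permutations are possible. Igfbp1 and Igfbp2 had r = 0.798 (exact permutation p = 0.0648, adjusted 0.0972) and rho = 0.678 (exact permutation p = 0.0525, adjusted 0.0787). This r fell to 0.393 without LM227 and LM226, and it was 0.446 in the C57BL/6 set and 0.946 in the mixed set. Igf1 and Igfals had r = 0.302 (exact permutation p = 0.276) and rho = 0.392 (exact permutation p = 0.232), 0.247 without LM227 and LM225, and 0.32 and 0.585 within the sets.

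The wider pathway was read from lists, each with the share of all genes above as its background. Of 13 genes of the receptors and the JAK-STAT relay, 1 rose and 3 fell in each model, with a median log2 fold change of 0.03 and 0.12. Those that fell were Ghr, Prlr and Sh2b1. Prlr encodes the prolactin receptor, the closest relative of the growth hormone receptor, and went from 54.2 to 57.5 TPM in WT (C57BL/6) to 20.3 to 24.8 TPM in YAP KO livers. It went from 51.1 to 58.7 TPM in WT (mixed) to 20.8 to 30.6 TPM in the YAP KO TAZ HET group. Prlr fell by 1.64 (SE 0.13, limma adjusted p = 6.1e-05) and by 1.46 (SE 0.14, limma adjusted p = 0.000171). Sh2b1, an adaptor that binds JAK2, fell by 0.44 and 0.48, and its call was lost without scaling in both models (limma adjusted p = 0.445 and 0.335). Stat3, the factor that answers interleukin 6, rose by 0.58 (limma adjusted p = 0.00648) and 0.60 (limma adjusted p = 0.0168). Stat5a, the sister of Stat5b, had 5.81 to 9.5 TPM in WT (C57BL/6) and 8.3 to 11.5 TPM in YAP KO livers and a log2 fold change of 0.03 and, in the other model, 0.13, neither called. Jak2 had values of 0.33 and 0.15, neither called. Without scaling 8 genes of the list were called higher and 2 lower in the C57BL/6 set, and 5 and 2 in the mixed set. In that setting 4390 of all 11704 genes tested were called higher and 834 lower in the C57BL/6 set, and 4089 and 886 of 11741 in the mixed set.

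Of 12 tested negative regulators of cytokine receptors 2 rose in the C57BL/6 set and 4 in the mixed set, and none passed downwards. Socs3, which is induced by STAT3 and also blocks the growth hormone receptor, went from 3.71 to 6.21 TPM in WT (C57BL/6) to 40.1 to 54.7 TPM in YAP KO livers. It went from 3.02 to 6.47 TPM in WT (mixed) to 22.1 to 53.5 TPM in the YAP KO TAZ HET group, and the groups were far apart in both. It rose by 2.60 (SE 0.20, limma adjusted p = 6.4e-05) and by 2.15 (SE 0.33, limma adjusted p = 0.00166). Ptpn6, a phosphatase found mostly in blood cells, rose by 0.40 and 0.35 (limma adjusted p = 0.0442 and 0.0288), and its calls were kept in 7 and 8 of 13 alternatives. Ptpn1, a phosphatase of JAK2 and of the insulin receptor, rose by 0.56 in YAP KO TAZ HET mice (limma adjusted p = 0.013), and its value in YAP KO mice was 0.38 (limma adjusted p = 0.059). Socs2 was the other gene of this list that rose in YAP KO TAZ HET mice. Socs1 lay between 0.234 and 1.399 TPM in all 12 livers and was below the filter in both models. Without scaling 6 and 9 genes of the list rose and none fell, while 4390 of 11704 and 4089 of 11741 genes tested rose.

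Of 12 transcription factors of the growth hormone response and the sex bias 6 fell in each model and none rose, with medians of -0.68 and -0.58. Beside Cux2, and Bcl6 in YAP KO TAZ HET mice, they were Tox, Trim24, Cebpa, Foxa1 and, in YAP KO mice, Onecut1. Onecut1, a hepatocyte factor that binds with STAT5 at female-biased genes, went from 13.6 to 16.5 TPM in WT (C57BL/6) to 3.56 to 7.58 TPM in YAP KO livers and fell by 1.71 (SE 0.19, limma adjusted p = 0.000385). In YAP KO TAZ HET mice its value was -1.31 with SE 0.55 and did not pass (limma adjusted p = 0.0933). Tox, which is female-biased in liver, fell by 1.74 and 0.83 (limma adjusted p = 0.000398 and 0.0162). Trim24 fell by 1.18 and 1.12 (limma adjusted p = 0.00124 and 0.00316). Cebpa, which keeps hepatocytes differentiated, fell by 0.94 and 0.68 (limma adjusted p = 0.00279 and 0.00114). Foxa1, a factor that opens chromatin, fell by 0.74 and 0.48 (limma adjusted p = 0.00259 and 0.0184). Without scaling 6 and 3 genes of the list fell, while 834 of 11704 and 886 of 11741 genes tested fell.

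Of the 6 tested genes among the IGF ligands, receptors and the ternary complex, Igf1 and Igfals fell and Igf2r rose in each model. Igf2r encodes the receptor that takes up and clears IGF2 and carries mannose 6-phosphate proteins to lysosomes. It went from 7.46 to 9.33 TPM in WT (C57BL/6) to 17.7 to 21.1 TPM in YAP KO livers and rose by 0.74 (SE 0.12, limma adjusted p = 0.00263). In YAP KO TAZ HET mice it rose by 0.61 (SE 0.11, limma adjusted p = 0.00295). Igf1r, the receptor of IGF1, lay between 0.40 and 0.90 TPM in all 12 livers, below the filter. Igf2, the fetal ligand, reached 0.364 TPM at most in WT livers, 0.784 TPM in YAP KO livers and 3.80 TPM in a YAP KO TAZ HET liver, and was also below the filter.

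Among the IGF binding proteins and their proteases every one of the 8 tested genes passed in YAP KO mice, 5 upwards and 3 downwards, and 7 of 8 passed in YAP KO TAZ HET mice, 5 upwards and 2 downwards. Igfbp3, the binding protein of the ternary complex, which in liver is made mostly outside hepatocytes, went from 10.1 to 19.3 TPM in WT (C57BL/6) to 2.99 to 7.14 TPM in YAP KO livers. It went from 13.2 to 21.6 TPM in WT (mixed) to 4.46 to 6.998 TPM in the YAP KO TAZ HET group. It fell by 1.83 (SE 0.31, limma adjusted p = 0.00276) and by 1.63 (SE 0.23, limma adjusted p = 0.001). All 3 RNAs of the ternary complex, Igf1, Igfbp3 and Igfals, were therefore lower in both models. Igfbp4, a binding protein of hepatocytes with 989.6 to 1273 TPM in the 6 WT livers, fell by 0.91 (limma adjusted p = 0.00348) and by 0.87 (limma adjusted p = 0.00322). Igfbp5 fell by 1.34 in YAP KO mice (limma adjusted p = 0.0124), and in YAP KO TAZ HET mice its value of -1.21 did not pass (limma adjusted p = 0.0537).

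The other risers of that list, beside Igfbp1 and Igfbp2, were Igfbp6, Igfbp7 and Htra1 in both models. Igfbp7, a matrix protein of vessels that binds IGF weakly, went from 107 to 155 TPM in the WT (C57BL/6) group to 305 to 362 TPM in the YAP KO group and rose by 1.01 (SE 0.15, limma adjusted p = 0.00155). It rose by 0.90 in YAP KO TAZ HET mice (SE 0.14, limma adjusted p = 0.00188). Igfbp6, which prefers IGF2, rose by 0.74 (limma adjusted p = 0.0123) and 1.54 (limma adjusted p = 0.0039). Htra1, a secreted protease that cuts IGF binding proteins, rose by 1.60 (limma adjusted p = 0.00239) and 1.25 (limma adjusted p = 0.00254).

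Of 10 insulin and FOXO1 target genes Igfbp1 alone rose in each model. Srebf1, the insulin-induced regulator of lipid synthesis, fell by 1.10 in YAP KO mice (SE 0.15, limma adjusted p = 0.00111) and by 1.74 in YAP KO TAZ HET mice (SE 0.30, limma adjusted p = 0.00266). Foxo3 fell by 0.87 in YAP KO TAZ HET mice (limma adjusted p = 0.0109). Genes that FOXO1 drives beside Igfbp1 did not pass. Pck1, of gluconeogenesis, had values of -0.05 (SE 0.36) and -0.40 (SE 0.24), G6pc of 0.31 (SE 0.44) and -0.28 (SE 0.22), and Irs2, the insulin receptor substrate, of 0.46 (SE 0.45) and -0.02 (SE 0.32).

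The sex-biased genes are the readout of the pattern of growth hormone. Of 22 female-biased genes 21 fell and 1 rose in YAP KO mice, and 19 fell and 1 rose in YAP KO TAZ HET mice, with medians of -4.35 and -3.32. Those that fell most were Cyp3a41a, Cyp2c69, Cyp3a44 and Sult3a1, enzymes of steroid and drug metabolism. Sult3a1 went from 244 to 274 TPM in WT (C57BL/6) to at most 0.66 TPM in YAP KO livers and fell by 7.92, and in YAP KO TAZ HET mice it fell by 7.36. The gene that rose was Prom1, also a marker of bile duct and progenitor cells, by 2.39 and 1.77. Of the male-biased genes 5 rose and 12 fell of 20 tested in YAP KO mice, and 3 rose and 12 fell of 18 in YAP KO TAZ HET mice, with medians of -1.86 and -1.73. Mup7 fell by 6.67 and 7.08 and Slco1a1, an organic anion transporter, by 5.59 and 4.38, and Serpina1e by 4.99 and 2.79, while Mup1 fell by 4.34 and 9.49. C6, of the complement cascade, rose by 3.30 and 3.599, Cyp2d9 by 1.72 and 2.12 and Gstp1 by 1.57 and 1.47, and in YAP KO mice Mup20 also rose, by 3.98. Cyp4a12b is counted among the risers of YAP KO mice but passed the filter only through those livers (1.11 to 3.11 TPM, at most 0.0946 TPM in WT). In YAP KO TAZ HET livers it stood at 0.744 to 4.57 TPM, against at most 0.13 TPM in WT (mixed), and was below the filter. So its call in YAP KO mice alone is no difference between the models. Sult3a1, Cyp3a44, Cyp3a16, Cyp3a41b, Mup1, Mup7, Hsd3b5, Elovl3 and Susd4 lay below 1 TPM in every YAP KO liver. They entered that fit only through the WT livers, so they could enter only as fallers. In the mixed set this held for Sult3a1, Cyp3a44, Cyp3a16, Mup7, Elovl3 and Susd4. Their falls are part of the counts and medians above and add no support of their own. Genes biased to either sex thus fell together in most cases. Reads of 25 of the 105 list genes searched, most of them Cyp and Mup genes, could be shared with a near-identical copy, so their single values are uncertain.

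**Figure D4:**
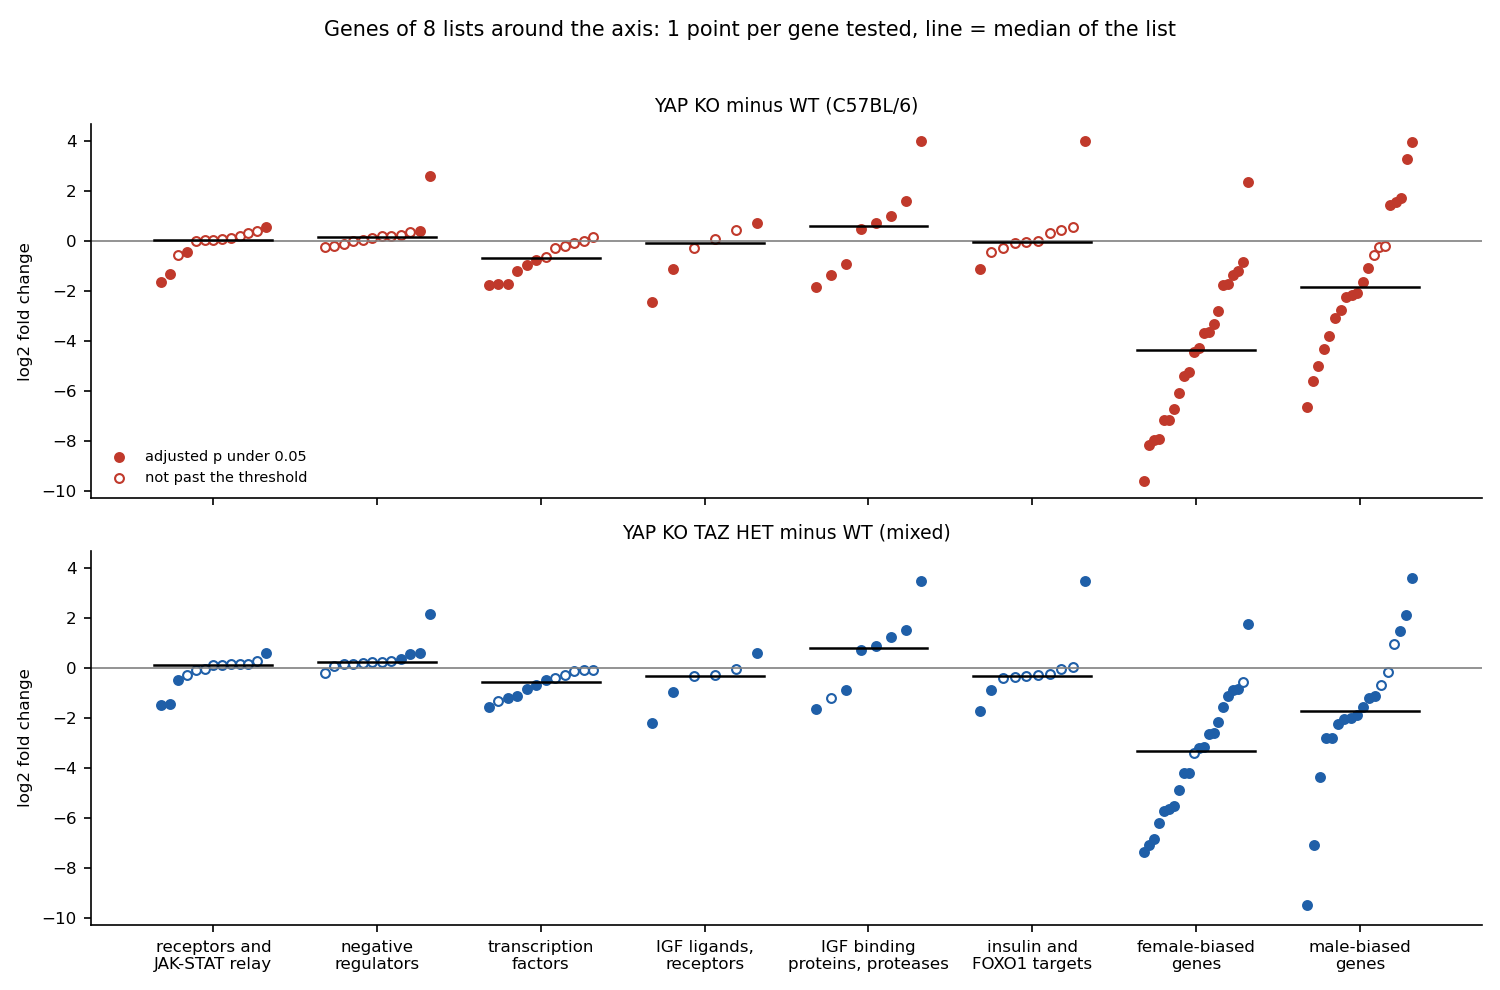
Log2 fold change of each tested gene of 8 lists in each model (YAP KO, YAP KO TAZ HET), filled where the limma adjusted p is under 0.05, with a line at the median of the list. The female-biased list has a median of -4.35 and -3.32 and the male-biased list of -1.86 and -1.73, while the receptor, regulator and IGF lists hold genes on both sides of 0.

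In whole liver, fewer cells of a type and less RNA per cell cannot be told apart. The summed TPM of 8 hepatocyte markers, Alb, Ttr and Apoa1 among them, was 104340 to 113950 in WT (C57BL/6) livers and 79220 to 90300 in YAP KO livers, and 96502 to 117040 and 76719 to 93518 in the mixed set. Alb made up most of this sum, with means of 78604 and 60138 TPM, and of 75447 and 61512 TPM in the mixed set. Of the 8, 3 fell in each model and none rose, and Hnf4a, Cps1, Apoa1 and Ass1 passed in neither model. Markers of Kupffer cells and macrophages summed to 217 to 267 TPM in WT (C57BL/6) livers and to 539.6 to 845 TPM in YAP KO livers, and to 192 to 413 and 820.4 to 1015 TPM in the mixed set, with 7 of 8 higher in each model. Markers of monocytes and neutrophils rose in 6 of 6 and 4 of 6 cases, and of stellate cells and fibroblasts 4 of 8 rose in each model, with 1 lower in YAP KO mice. The cholangiocyte sum was 36.7 to 64.3 TPM in WT (C57BL/6) and 336 to 759 TPM in YAP KO livers, and 50.3 to 66.9 and 109.5 to 231 TPM in the mixed set, most of it Spp1, with 2 of 5 tested markers higher in each model and 1 lower in the mixed set. The endothelial sum was 77.6 to 85.1 and 73.5 to 109 TPM, and 101 to 106 and 88.4 to 125 TPM, with 2 of 6 markers lower in each model and 1 higher in the mixed set. Markers of T and B lymphocytes summed to at most 12.1 TPM in any liver, and no marker of any list was at 0 in all 3 livers of a group. Ghr, Igf1, Igfals, Igfbp1 and Igfbp2 changed in the same livers in which these sums changed, and the part of the cell make-up in their changes was not tested.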

How the data were processed

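RNA from the livers of 12 mice was sequenced. CLC Genomics Workbench served the authors to map reads to GRCm38.p6, and the deposited values are TPM per gene and mouse. The authors' own comparisons in the tables, made with edgeR after trimmed mean of M-values normalization, hold the larger group mean, fold changes, p-values and corrected p-values and were not used here. No count of reads was used, so the depth reached by each library is unknown and errors rest on how far 3 mice per group differ.

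TPM was divided by an unweighted trimmed mean of log ratios (trimming 30% of log ratios and 5% of mean levels per end) and used as log2(value + 1). A gene entered a fit if 3 or more of its libraries reached 1 TPM. The test was limma 3.58.1 in R 4.3.3 (eBayes with trend, two-sided, Benjamini-Hochberg). The fit of a model held its 6 libraries, and that of the difference between the models 12. The steps were tested on simulated data with normal noise, in which 200 genes were changed by 1 on the log2 scale. Of these, 56% were called in the YAP KO fit and in the difference between the models. In the YAP KO TAZ HET fit and between the WT groups 78.5% were called. Unchanged genes called numbered 3, 4, 9 and 8 in that order. Far more genes were called in each real model against WT, so these shares may not hold there. A gene not called may still have changed. Ratios and relations used exact permutation tests in scipy 1.17.1, and near-identical copies were sought with blastn 2.17.0 (90% identity over 30% of the length). All TPM columns matched a sample, and no pair of libraries was identical (0).

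The 10 genes and the lists were chosen with earlier results of these data known, and the ratios after the values were seen. The genes named beside the 10 are Yap1, Wwtr1, the list genes past the threshold with the 4 largest changes in a direction or, where 5 or fewer passed, all of them, and relatives of the 10. Jak2, Pck1, G6pc, Irs2, Foxa1, Cebpa and the marker genes were named after their values were seen. Alternatives were no scaling, quantile normalization, pseudocount 0.1, no filter, a minimum of 5 TPM, robust shrinkage, all 12 libraries in 1 fit and each mouse left out in turn.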

Additional observations from a re-analysis of the deposited data

Results flagged for a closer look

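For 2 genes of the sex-biased lists the change differed between the models in the contrast over 12 livers. Cyp3a41a, a female-biased gene, fell by 9.62 in YAP KO mice and by 6.19 in YAP KO TAZ HET mice, a difference of -3.44 (SE 0.37, limma adjusted p = 0.00399). It stood at 1.23 to 3.97 TPM in YAP KO livers and at 27.9 to 48.7 TPM in their mixed-background counterparts, while the WT groups, at 1839 to 2516 and 1754 to 2318 TPM, overlapped. Mup1, a male-biased gene, fell by 4.34 and by 9.49, a difference of 5.13 (SE 0.63, limma adjusted p = 0.0124). Its WT levels were 10.01 to 46.1 TPM in WT (C57BL/6) and 1348 to 2287 TPM in WT (mixed) livers, and both deletion groups lay at 2.73 TPM or less. Mup1 was higher in WT (mixed) than in WT (C57BL/6) livers by 6.28 (limma adjusted p = 0.00125). Its difference between the models thus lies mostly in the WT levels. Both Cyp3a41a and Mup1 have near-identical copies with which reads can be shared. Yap1 itself also differed, with a fall of 3.51 in YAP KO mice and of 1.93 in YAP KO TAZ HET mice and a difference of -1.59 (SE 0.24, limma adjusted p = 0.0371), and the call was kept in 5 of 18 alternatives (limma adjusted p 0.00184 to 0.146). Of the 10 genes of the axis none met this test.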

How the results depend on the processing

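No paired analysis was possible because the mice of the groups share no replicate numbers and the labels give no litters, so WT mice could not be matched to the deletion mice of their litter and litter was not a term in any fit. Over 13 alternatives for each of the 10 genes, 121 of 130 values in YAP KO mice and 113 of 130 in YAP KO TAZ HET mice kept their side of the threshold, with 7 and 15 calls lost and 2 and 2 gained, and no called value turned its direction. All 130 values between the WT groups and all 180 of the difference between the models stayed uncalled.

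Of all genes, 4486 passed in YAP KO TAZ HET mice and 2833 to 4069 with 1 mouse left out, the fewest without LM251. Between the WT groups 24 genes passed, 15 without the filter on low values, and 9 to 28 with 1 mouse left out. For the difference between the models 7 passed, 3 with pseudocount 0.1, 2 without the filter, and 3 to 20 with 1 mouse left out. The r of Socs2 and Cish was 0.779 to 0.903 with 1 mouse left out, and its adjusted p from the exact permutation test was above 0.05, no longer called, in 9 of these 12. Leaving out a mouse leaves fewer samples and fewer permutations. Other causes were not tested. Without counts, low genes such as Bcl6, Cux2, Socs2 and Cish have an error that only the 3 mice of a group show.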
